A study of Mus musculus with 12 samples.

Results

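The potassium channel genes of the mouse heart were described in 12 hearts. They were taken as the genes whose symbol begins with Kcn and that had at least 10 counts in 3 or more of the 12 hearts. Of the 19308 genes in the count table, 52 met this rule, and 37 further genes with such a symbol did not. The members comprised 21 pore subunits of voltage-gated channels, 2 silent subunits that modify voltage-gated channels, 9 inward rectifiers, 5 two-pore-domain channels, 6 channels opened by calcium or sodium and 9 accessory subunits. Just inside the rule, with 3 hearts at 10 counts or more, stood *Kcne1l* (2 to 18 counts), *Kcnn4* (1 to 19), *Kcnq3* (0.90 to 22.7) and *Kcnq5* (0 to 22). Just outside it, with 2 such hearts, stood *Kcne3* (1 to 15 counts) and *Kcnv1* (2.99 to 11.1).

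All mice were of the C57BL/6 strain, and the surgery was done at 8 weeks of age. The groups were WT and F3-KO mice, the latter lacking *Fabp3*, a fatty acid binding protein of heart muscle, in the whole body after CRISPR-Cas9 editing, and 3 hearts of each genotype were taken 1 week after TAC and 3 after a sham operation. TAC narrows the aortic arch so that the left ventricle works against a raised pressure, and the sham mice had the operation without the narrowing. Whole-heart RNA was measured, so that fewer cells of a type and less RNA per cell cannot be told apart, and the labels do not say whether atria were included.

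Potassium channels carry the outward currents that end the cardiac action potential and hold the resting voltage between beats. In the mouse ventricle the fast transient outward current (*Kcnd2*, *Kcnd3* and their partner *Kcnip2*) and the slower current of *Kcna5* do much of the early repolarization, and the inward rectifiers *Kcnj2* and *Kcnj12* set the resting voltage. *Kcnj3* and *Kcnj5* form the channel opened by acetylcholine, which is known best from the atria, and *Kcnj11* and *Kcnj8* form the pores of channels closed by ATP.

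Total counts were 10424334 to 14372011 per heart, and the 52 members took 0.136% to 0.235% of them. *Fabp3* was at 2117 to 3064 CPM (counts scaled to a common library size with TMM factors) in the 6 WT hearts and at 1002 to 1143 CPM in the 6 F3-KO hearts, so the labels separated without overlap while counts were still assigned to the gene in every F3-KO heart. *Nppb*, the natriuretic peptide gene used as a sign of pressure overload, was at 95.05 to 311 CPM in the sham hearts and at 411 to 776 CPM in the TAC hearts. The summed level of 6 cardiomyocyte markers was 62867 to 68267 CPM in the F3-KO sham group and 35144 to 47959 CPM in the F3-KO TAC group. In WT hearts it was 46795 to 65599 CPM after sham and 50414 to 67421 CPM after TAC. The largest part of it was *Myh6*, with means of 33388 CPM in F3-KO sham and 17185 CPM in F3-KO TAC hearts. *Myl2*, *Tnnt2* and *Pln* also had lower means in F3-KO TAC than in F3-KO sham hearts. *Actn2* (2505 and 2437 CPM) and *Ryr2* (1360 and 1312 CPM) were nearly level between these groups. The 5 fibroblast markers summed to 771 to 1056 CPM in the F3-KO sham group and 1273 to 2948 CPM in the F3-KO TAC group, against 573 to 1361 CPM in the WT sham group and 940 to 1575 CPM in the WT TAC group. In the same F3-KO groups the 4 macrophage markers summed to 166 to 195 CPM after sham and 242 to 364 CPM after TAC, against 101 to 206 CPM and 195 to 275 CPM in the WT groups. The 5 red blood cell markers summed to 1068 to 4718 CPM after sham and 380 to 902 CPM after TAC in F3-KO hearts. In WT hearts they summed to 630 to 1764 CPM after sham and 321 to 4250 CPM after TAC, which overlapped. The part of these cells in the results was not tested. The 3 atrial markers summed to 23.96 CPM in F3-KO sham replicate 2 and 24.7 CPM in F3-KO TAC replicate 2, and to at most 7.002 CPM in the other 10 hearts. The slow myosin *Myh7* ranged from 174 CPM to 23126 CPM, with the highest values in F3-KO TAC replicate 3 and WT TAC replicate 3, at 21580 CPM.

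Divided by the length of all annotated exons, the highest level among the members was that of *Kcnk3*, a two-pore-domain channel that passes a background current, at 93.5 CPM per kb on average over the 12 hearts. *Kcnip2* followed at 69.2 CPM per kb, *Kcnj11* at 53.8, the silent subunit *Kcng2* at 38.0 and the ERG-type channel *Kcnh6* at 37.3 CPM per kb. *Kcnh2*, the ERG channel of late repolarization, had 19.9 CPM per kb, *Kcnj12* 18.6, *Kcna5* 18.5 and *Kcnq1* 14.3 CPM per kb. *Kcnj2* ranked 13th at 8.17 CPM per kb, and *Kcnd2* stood below it with group means of 2.37 to 4.69 CPM per kb. The order among neighbours such as *Kcnh6* and *Kcng2*, or *Kcnj12* and *Kcna5*, rests on differences smaller than the spread between hearts. Exons of 16 members, *Kcnk3*, *Kcnq1* and *Kcnj3* among them, overlap a gene on the opposite strand, and whether the counting used strand is not given in the sources used here, so counts of these members may include the partner's reads.

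**Figure D1:**
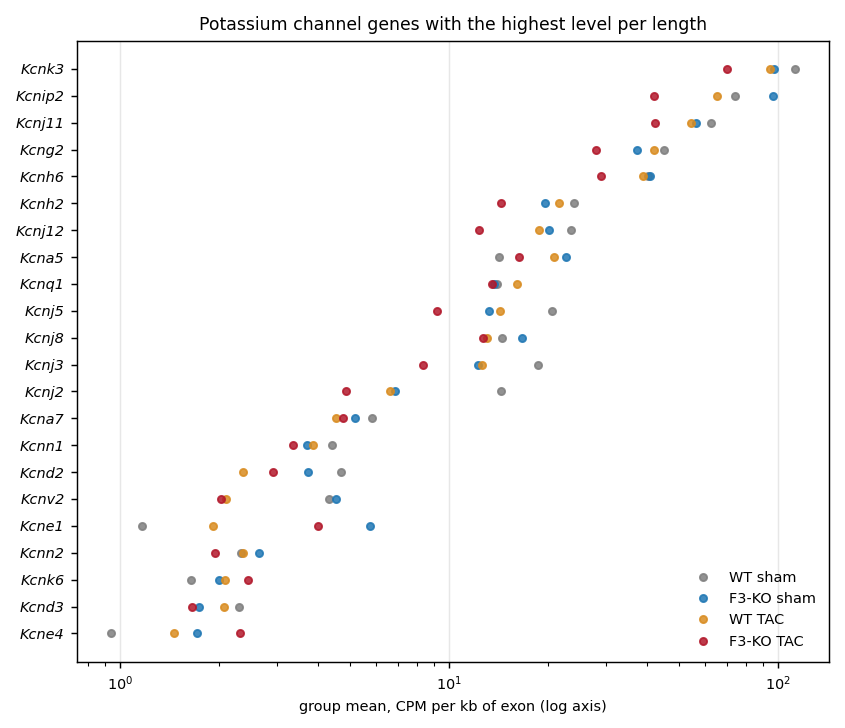
Potassium channel genes among the 24 with the highest level per length, 22 of them shown; the x axis is the group mean in CPM per kb of exon on a log axis, and the colours are the 4 groups of 3 hearts. *Kcnk3* lies farthest right in every group, level with *Kcnip2* in the F3-KO sham hearts. The F3-KO TAC group (red) is the lowest of the 4 points for 12 of the first 13 genes, and the share over all genes was not counted. Of the genes below these, *Kcnn1*, *Kcnv2*, *Kcnn2* and *Kcnd3* are also lowest in F3-KO TAC. There *Kcna7* and *Kcnd2* are lowest in WT TAC and *Kcne1* in WT sham, while *Kcnk6* and *Kcne4* are highest in F3-KO TAC.

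The promoters of 4 members are given because the comparisons below turn on these genes: *Kcnj2*, *Kcnip2* and *Kcnd2* had the smallest p-values among the members for TAC against sham, and *Kcna5* had the smallest p-value in the test of whether the genotypes differed in their TAC effect. Each is the 250 bases before the gene's start in RefSeq (GRCm38.p6), read 5′ to 3′ on the gene's strand, and capitals mark the GC box GGGCGG or its reverse complement.
*Kcnj2* promoter, chr11:111065914-111066163, plus strand: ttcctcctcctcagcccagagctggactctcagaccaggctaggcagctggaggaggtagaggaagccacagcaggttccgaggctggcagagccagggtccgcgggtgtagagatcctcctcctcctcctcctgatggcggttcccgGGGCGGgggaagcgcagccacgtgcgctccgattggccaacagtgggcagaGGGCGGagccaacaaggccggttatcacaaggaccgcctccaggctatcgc
*Kcnip2* promoter, chr19:45816064-45816313, minus strand: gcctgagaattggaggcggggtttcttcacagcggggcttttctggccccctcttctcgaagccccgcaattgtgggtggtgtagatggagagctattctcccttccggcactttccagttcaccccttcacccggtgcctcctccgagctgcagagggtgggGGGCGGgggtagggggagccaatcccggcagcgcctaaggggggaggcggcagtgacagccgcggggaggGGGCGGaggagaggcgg
*Kcnd2* promoter, chr6:21215096-21215345, plus strand: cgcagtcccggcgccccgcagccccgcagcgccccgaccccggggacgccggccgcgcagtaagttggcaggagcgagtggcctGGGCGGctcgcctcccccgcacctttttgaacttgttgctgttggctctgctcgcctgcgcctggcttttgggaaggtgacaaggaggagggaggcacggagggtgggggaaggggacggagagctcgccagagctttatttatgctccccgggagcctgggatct
*Kcna5* promoter, chr6:126535556-126535805, minus strand: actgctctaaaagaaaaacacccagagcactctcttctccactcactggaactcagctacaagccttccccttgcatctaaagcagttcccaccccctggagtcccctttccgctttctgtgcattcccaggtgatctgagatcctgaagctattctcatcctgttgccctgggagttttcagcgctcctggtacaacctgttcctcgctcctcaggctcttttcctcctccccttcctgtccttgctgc
These letters held 2 GC boxes in *Kcnj2*, 2 in *Kcnip2*, 1 in *Kcnd2* and 0 in *Kcna5*, at a GC content of 65.6%, 66.8%, 68.8% and 53.2%. Promoters were found for 36 of the 52 members, some with several starts. Of their 52 promoters 21 (40.4%) held a GC box on either strand, against 32.7% of all 32851 promoters of that length. The TATA box TATAAA was in 0 of the 52 and in 12.4% of all, the Iroquois-type motif ACANNTGT in 2 (*Kcna7* and *Kcnip1*) and in 6.31% of all, and the DR1 direct repeat in its consensus form, to which receptors such as PPARα bind, in 0 and in 0.0335% of all. A match describes these letters and is not a binding site. The median GC content was 58.8% over the members' promoters and 52.4% over all.

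The first comparison was TAC with sham, over both genotypes and in each. Over both genotypes 0 of the 52 members passed edgeR's quasi-likelihood test at an adjusted p under 0.05, where 11 of the 14094 genes tested (0.078%) did, and DESeq2 called 3 members (*Kcnd2*, *Kcnip2* and *Kcnj2*, all lower) and 4.66% of all genes. At an unadjusted p under 0.05, 5 members were higher and 12 lower, against 11.3% of all genes higher and 6.52% lower. The higher include *Kcnq3* and *Kcnk13*, whose membership rests on TAC hearts. The lower include *Kcnc4*, a member only through sham hearts, so both counts follow in part from the selection. The log2 fold change was negative for 26 of the 52, with a median of -0.05 against 0.00 for all genes. The 4 members with the smallest p-values, *Kcnj2*, *Kcnip2*, *Kcnd2* and *Kcnj12*, all had negative values.

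*Kcnj2*, the main inward rectifier of the ventricle, was at 66.0, 65.0 and 103 CPM in the WT sham hearts and at 30.3, 39.2 and 38.9 CPM in the WT TAC hearts. It was at 39.7, 35.1 and 36.9 CPM in the F3-KO sham hearts and at 27.3, 20.7 and 31.3 CPM in the F3-KO TAC hearts. The sham and TAC hearts did not overlap in either genotype, and the 3 WT sham hearts stood above the other 9. TAC against sham gave a log2 fold change of -0.81 (SE 0.14, edgeR adjusted p = 0.0614) over both genotypes, -1.11 (SE 0.20, adjusted p = 0.272) in WT hearts and -0.50 (SE 0.20, adjusted p = 0.243) in F3-KO hearts. The first of these passed with no filter on low counts and with at least 10 counts demanded of every heart.

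*Kcnj12*, the second strong inward rectifier, was at 55.0, 54.6 and 83.6 CPM after sham and at 39.3, 52.2 and 63.0 CPM after TAC in WT hearts, where the groups overlapped. In F3-KO hearts it was at 56.9, 53.5 and 55.2 CPM after sham and at 27.2, 30.1 and 44.4 CPM after TAC, with every TAC heart below every sham heart. Its log2 fold change was -0.71 (SE 0.23, adjusted p = 0.184) in F3-KO hearts and -0.51 (SE 0.16, adjusted p = 0.147) over both genotypes. The pair *Kcnj3* and *Kcnj5* gave -0.56 (SE 0.18) and -0.52 (SE 0.17) over both genotypes, with adjusted p of 0.158 and 0.156 by edgeR. Of the pores closed by ATP, *Kcnj11* was at 182 to 284 CPM in WT sham, 159 to 238 in WT TAC, 203 to 212 in F3-KO sham and 123 to 208 CPM in F3-KO TAC hearts, with a log2 fold change of -0.31 (SE 0.16, adjusted p = 0.328) over both genotypes. *Kcnj8* gave -0.27 (SE 0.11, adjusted p = 0.216). Of the 9 inward rectifiers 6 had a negative value, with a median of -0.31.

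*Kcnip2*, the accessory subunit that increases the transient outward current, was at 299.8, 153 and 317 CPM in the WT sham hearts and at 163, 279 and 236 CPM in the WT TAC hearts, which overlapped. It was at 319, 321 and 363 CPM in the F3-KO sham hearts and at 159, 140.5 and 137 CPM in the F3-KO TAC hearts, and there the groups lay far apart. It gave a log2 fold change of -1.20 (SE 0.26, adjusted p = 0.172) in F3-KO hearts, -0.18 in WT hearts and -0.69 (SE 0.18, adjusted p = 0.105) over both. *Kcnd2*, a pore of the same current, was at 32.5, 15.5 and 24.4 CPM in WT sham and at 13.7, 9.95 and 12.9 CPM in WT TAC hearts. In F3-KO hearts it was at 18.05, 19.8 and 20.0 CPM after sham and at 16.6, 10.5 and 18.1 CPM after TAC. The WT groups did not overlap, while F3-KO TAC replicate 3 lay level with the lowest F3-KO sham heart. *Kcnd2* had a log2 fold change of -0.98 (SE 0.26, adjusted p = 0.76) in WT hearts, -0.36 in F3-KO hearts and -0.67 (SE 0.18, adjusted p = 0.116) over both. *Kcnd3*, the other pore of this current, had -0.11 (SE 0.14, adjusted p = 0.702) over both genotypes.

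*Kcnv2*, a silent subunit, was at 25.5, 21.4 and 19.3 CPM in WT sham and 6.75, 7.84 and 17.6 CPM in WT TAC hearts. In F3-KO hearts it was at 17.5, 20.9 and 31.1 CPM after sham and at 5.08, 4.72 and 21.4 CPM after TAC. Replicate 3 of the WT TAC group stood close to the sham range and replicate 3 of the F3-KO TAC group inside it, and these 2 hearts had the highest *Myh7* of all, whose part in the result was not tested. The log2 fold change was -1.11 (SE 0.37, adjusted p = 0.17), and -1.64 without F3-KO TAC replicate 3. Without that heart 5 members passed over both genotypes (*Kcnd2*, *Kcnj5*, *Kcnv2*, *Kcnj12* and *Kcnj2*, all lower), where 5.92% of all genes did. In F3-KO hearts 4 then passed (*Kcnj5*, *Kcnv2*, *Kcnip2* and *Kcnj12*), where 5.43% of all genes did. Without WT sham replicate 2 the count over both genotypes was 2 (*Kcnip2* and *Kcnj2*), against 0.479% of all genes.

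**Figure D2:**
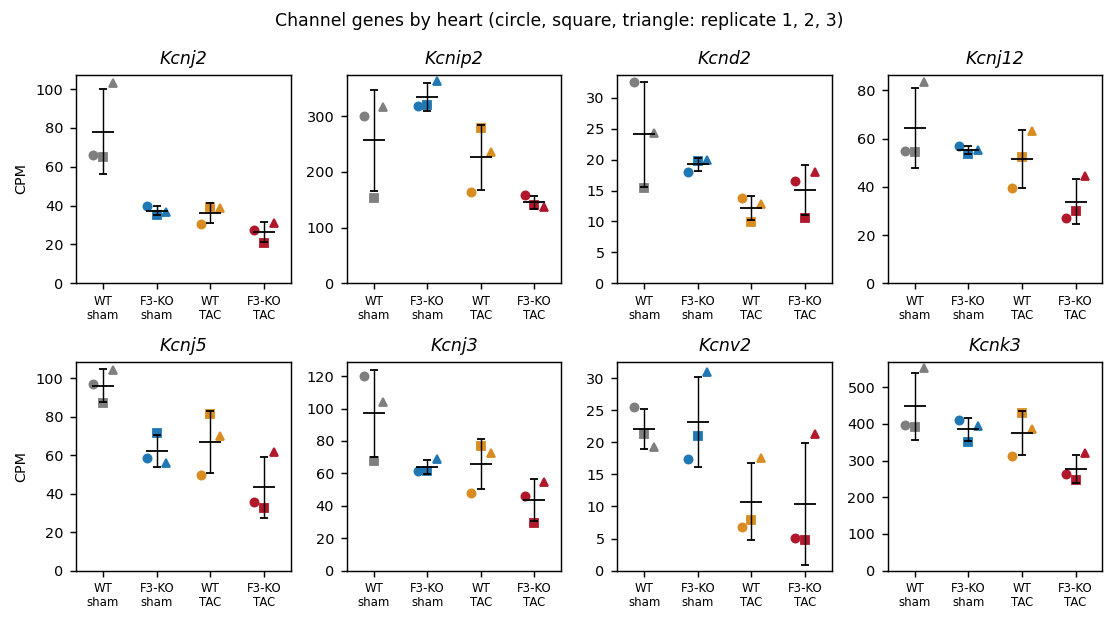
Level of 8 channel genes in each heart; the y axis is CPM from 0, symbols are replicates 1 to 3 of each group, and black bars give the mean ± SD of 3 hearts. *Kcnj2* is highest in the 3 WT sham hearts, and *Kcnip2* in the F3-KO TAC hearts lies at 137 to 159 CPM, below all F3-KO sham hearts.

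Among the other cardiac channel genes, *Kcnq1*, the slow delayed rectifier, had a log2 fold change of 0.09 (SE 0.17) for TAC against sham over both genotypes, and *Kcna4*, a slow transient outward channel, one of 0.02. *Kcna7* gave -0.25 and the small-conductance calcium-activated channel *Kcnn2* -0.22. Of the less counted ones, *Kcnk2*, a channel opened by stretch, gave 0.34, *Kcnj14* 0.55 and *Kcnmb1*, the smooth muscle subunit of a large-conductance calcium-activated channel, 0.24. *Kcnk3*, the most abundant member, was at 392 to 554 CPM in WT sham, 312 to 430.1 in WT TAC, 350.0 to 411 in F3-KO sham and 247 to 321 CPM in F3-KO TAC hearts, with a log2 fold change of -0.36 (SE 0.13, adjusted p = 0.18). None of these genes passed edgeR's test, and DESeq2 called none of them in this comparison.

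The 30 members under 10 CPM spanned log2 fold changes of -1.26 to 1.46 for TAC against sham over both genotypes, and 22 of them were positive, with a median of 0.31 against 0.12 for all genes at that level. *Kcnq3*, at the upper end of this range, *Kcnn4* and *Kcne1l* met the rule for members only through TAC hearts. A higher value after TAC follows from the selection of these genes, and the count and the median include them. *Kcnk13*, a two-pore-domain channel, was at 0.97, 0.55 and 0.41 CPM in WT sham and at 1.02, 1.497 and 1.60 CPM in WT TAC hearts, without overlap, and its log2 fold change over both genotypes was 0.96 (SE 0.34, adjusted p = 0.186). It had 10 counts or more in every TAC heart and, of the sham hearts, only in replicate 1 of each genotype. Its membership thus rests on the TAC hearts. *Kcnc4*, a fast inactivating voltage-gated channel, was at 1.33, 0.95 and 1.65 CPM in F3-KO sham and at 0.68, 0.57 and 0.58 CPM in F3-KO TAC hearts, and gave -0.95 (SE 0.33, adjusted p = 0.183) over both. No TAC heart had 10 counts of *Kcnc4*, which met the rule only through sham hearts. A lower value after TAC follows from this selection. *Kcnj15* reached 11.9 CPM in F3-KO TAC replicate 2 and 5.24 CPM in replicate 1, and stayed at or below 2.33 CPM in the other 10 hearts. For *Kcnip1* the F3-KO TAC hearts held 3, 4 and 0 counts, so the fitted value of -2.84 in F3-KO hearts depends on the prior count. This gene met the rule in part through F3-KO sham replicates 2 and 3, at 23 and 16 counts, so its selection also favours a negative value there.

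In WT hearts 0 members passed the test after TAC, as did 0% of all genes. At an unadjusted p under 0.05, 3 were higher and 4 lower, against 3.68% and 2.6% of all genes, and DESeq2 called *Kcnj2* and 0.192% of all genes. The 3 higher were *Kcna5*, *Kcnq3* and *Kcnk13*. The membership of *Kcnq3* and *Kcnk13* rests on TAC hearts, so their higher values follow from the selection. In F3-KO hearts 0 members passed, again with 0% of all genes, 2 were higher and 13 lower at an unadjusted p under 0.05, against 10.6% and 6.47% of all genes, and DESeq2 called *Kcnip2* and 3.15% of all genes. The WT sham and TAC hearts did not overlap for 6 of the 52 members (11.5%; 9.1% of all genes), and the F3-KO sham and TAC hearts for 18 (34.6%; 22.9% of all genes). *Kcnk13* is among the 6. *Kcnc4* and *Kcnip1*, selected wholly or in part through sham hearts, are among the 18 and among the 13 lower. These counts thus rest in part on the selection. The 2 members higher in F3-KO TAC hearts were *Kcnn3*, a small-conductance calcium-activated channel (log2 fold change 1.23, SE 0.53, adjusted p = 0.267), and *Kcnab2*, a cytoplasmic beta subunit (0.87, SE 0.36, adjusted p = 0.245).

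The 22 members with a mean of at least 10 CPM, a division made after the values were seen, all had a negative log2 fold change for TAC against sham in F3-KO hearts, with a median of -0.45, where 52.8% of the 9372 genes at that level were negative and their median was -0.02. In WT hearts 17 of the 22 were negative (53.3% of all such genes), with a median of -0.17 that ran from -0.29 without WT sham replicate 2 to -0.081 without WT sham replicate 3. Leaving out 1 heart at a time gave 21 to 22 negative members in F3-KO hearts and 14 to 17 in WT hearts. Among the exceptions in WT hearts were *Kcna5*, *Kcne1*, *Kcnq1* and *Kcnn2*. Heart by heart against the mean of the F3-KO sham hearts, the median over the 22 was -0.48 in F3-KO TAC replicate 1, -0.61 in replicate 2 and -0.18 in replicate 3. The summed cardiomyocyte markers of these hearts, with *Myh6* as the largest part, were 43382, 35144 and 47959 CPM, in the same order. The heart with the lowest marker sum had the lowest channel values. *Actn2* and *Ryr2* of the same marker list had nearly level means in F3-KO sham and F3-KO TAC hearts. The part of the marker level in the result was not tested. In the WT TAC hearts the medians against the mean of the WT sham hearts were -0.38, -0.15 and -0.08, at marker sums of 50414, 67421 and 60920 CPM. Against the mean of their own group, the sham hearts had medians of -0.054 to 0.018 in F3-KO and -0.23 to 0.13 in WT. The lowest, in WT sham replicate 2 with 18 of the 22 members lower, lay below those of WT TAC replicates 2 and 3 and F3-KO TAC replicate 3. Among the 30 members under 10 CPM, 18 (60%) had a positive value in F3-KO hearts, near the 64.2% of all genes at that level, and 18 (60%) in WT hearts, near the 56.4% of all such genes. These counts include members whose selection rests on TAC or on sham hearts.

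**Figure D3:**
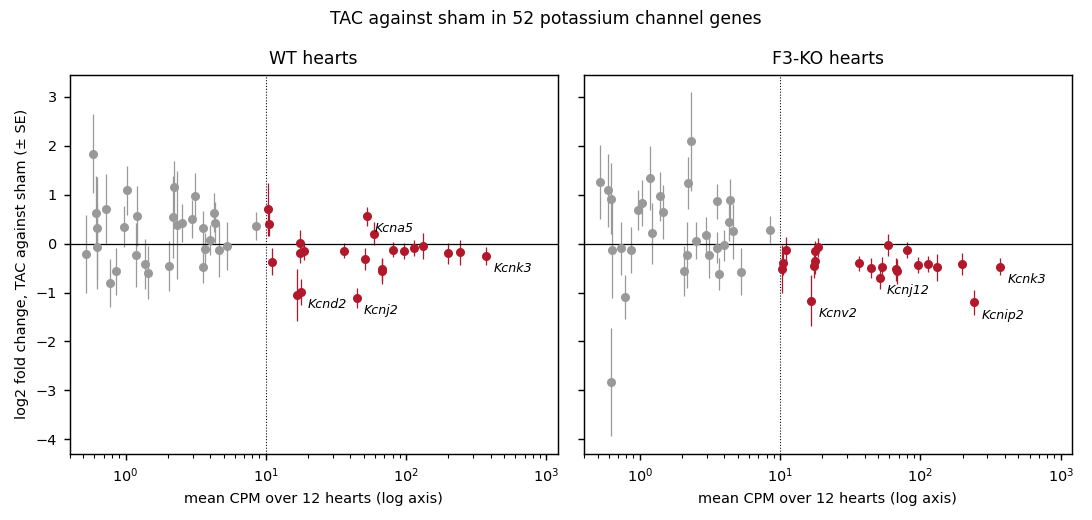
Log2 fold change of TAC against sham (± SE) against the mean CPM over 12 hearts on a log axis, for the 52 potassium channel genes, in WT hearts (left) and F3-KO hearts (right); red points are the 22 genes at 10 CPM or more. All red points lie below 0 in F3-KO hearts, and 17 of 22 in WT hearts.

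**Figure D4:**
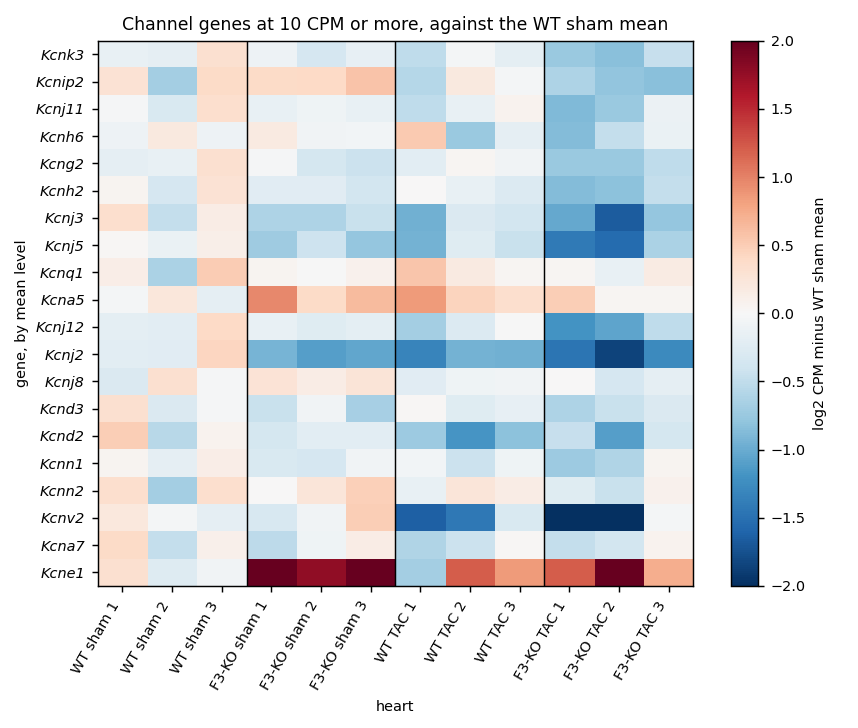
Potassium channel genes with a mean of at least 10 CPM, 20 of the 22 shown, in each of the 12 hearts; colour is the log2 CPM minus the mean of the 3 WT sham hearts, from -2 (blue) to 2 (red). *Kcne1* is red in the F3-KO sham hearts, *Kcnj2* is blue in all 9 hearts outside the WT sham group, and WT sham replicate 2 is low for *Kcnip2*, *Kcnq1* and *Kcnn2*.

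The second comparison was F3-KO with WT. Averaged over sham and TAC, 1 member passed the test, where 58 genes (0.412%) did: *Kcnj2* fell by 0.76 on the log2 scale (SE 0.14, edgeR adjusted p = 0.0454). The call was lost in 10 of the 12 fits that left out 1 heart, at adjusted p of 0.0521 to 0.16. After sham alone the log2 fold change of *Kcnj2* was -1.07 (SE 0.20, adjusted p = 0.0866), and after TAC alone -0.45 (SE 0.20, adjusted p = 0.497). The sham hearts did not overlap, since the lowest WT sham heart was at 65.0 CPM and the highest F3-KO sham heart at 39.7 CPM, whereas the TAC hearts overlapped. At an unadjusted p under 0.05, 4 members were higher and 9 lower in F3-KO hearts, against 5.37% and 4.74% of all genes. DESeq2 called 7 members (*Kcnh2*, *Kcng2*, *Kcnj5* and *Kcnj2* lower, *Kcnj4*, *Kcne1* and *Kcnc1* higher) and 1.54% of all genes. *Kcnj4* and *Kcnc1* are also among the 4 members higher by edgeR. Their membership rests on the F3-KO hearts, as set out below, so part of both counts of higher members follows from the selection.

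The acetylcholine-gated pair differed from WT in the same direction as *Kcnj2*, without passing the test. *Kcnj5* was at 97.1, 86.9 and 104 CPM in WT sham and 58.5, 71.5 and 55.9 CPM in F3-KO sham hearts, without overlap, and at 49.4, 81.2 and 69.8 CPM in WT TAC and 35.5, 32.7 and 61.4 CPM in F3-KO TAC hearts, with overlap. Its log2 fold change averaged over both surgeries was -0.63 (SE 0.17, adjusted p = 0.209). *Kcnj3* had 67.4 to 119.96 CPM in WT sham, 61.5 to 69.2 in F3-KO sham, 48.1 to 76.9 in WT TAC and 29.3 to 54.8 CPM in F3-KO TAC hearts, and a log2 fold change of -0.60 (SE 0.18, adjusted p = 0.265). The ERG channel *Kcnh2* had 90.6 to 139 CPM in WT sham and 88.7 to 98.1 CPM in F3-KO sham hearts, which overlapped, and 95.02 to 115 CPM in WT TAC against 62.7 to 81.8 CPM in F3-KO TAC hearts, which did not. *Kcng2* likewise separated only in the TAC hearts, at 114 to 137 CPM in WT and 78.9 to 92.9 CPM in F3-KO hearts. After TAC both had a log2 fold change of -0.59 (SE 0.16, adjusted p = 0.374).

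*Kcne1*, the small subunit that slows the *Kcnq1* channel, reached a mean of 10.3 CPM only through the F3-KO hearts, since the WT group means were 3.77 and 6.16 CPM. It was at 4.76, 3.02 and 3.52 CPM in the WT sham hearts and at 22.1, 13.9 and 19.4 CPM in the F3-KO sham hearts, every one of which stood above every WT sham heart. In the TAC hearts it was at 2.12, 9.25 and 7.10 CPM in WT and at 9.26, 22.8 and 6.43 CPM in F3-KO, and these groups overlapped. The log2 fold change was 2.295 (SE 0.53, adjusted p = 0.228) after sham and 1.69 (SE 0.37, adjusted p = 0.107) averaged over both surgeries. Its partner *Kcnq1* had an average of -0.14 on the log2 scale. *Kcnj4*, an inward rectifier with few counts, had 4, 1 and 2 counts in WT sham and 12, 17 and 13 in F3-KO sham hearts, then 6, 2 and 4 in WT TAC and 6, 23 and 18 in F3-KO TAC hearts. It met the rule for members only through the F3-KO hearts, so that a difference between the genotypes follows from its selection. Its fitted log2 fold change of 2.07 (SE 0.45, adjusted p = 0.107) depends at such counts on the prior count of the fit. *Kcnc1*, a fast voltage-gated channel best known from neurons, had 0.35 to 1.40 CPM in the WT hearts and 0.99 to 7.09 CPM in the F3-KO hearts, with a log2 fold change of 2.36 (SE 0.54, adjusted p = 0.129). It had 10 counts or more in every F3-KO heart and, of the WT hearts, only in WT TAC replicates 1 and 3. Its membership thus rests on the F3-KO hearts, and a higher value in them follows from its selection.

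After sham alone 0 members passed, where 0.106% of all genes did, and DESeq2 called *Kcne1* and *Kcnj2* and 0.746% of all genes. At an unadjusted p under 0.05, 4 were higher and 3 lower, against 2.81% and 3.21% of all genes, and the sham groups did not overlap for 10 members (19.2%; 13.7% of all genes). *Kcnj4* and *Kcnc1*, whose membership rests on the F3-KO hearts, are among the 4 and among the 10. After TAC alone 0 members passed in edgeR or DESeq2, where edgeR called 0.078% of all genes and DESeq2 0.717%. At an unadjusted p under 0.05, 3 were higher and 8 lower, against 5.84% and 4.16% of all genes, and the TAC groups did not overlap for 6 members (11.5%; 11.4% of all genes). *Kcnj4* and *Kcnc1* are again among the 3 higher, so that count also follows in part from the selection. Of the 22 members at 10 CPM or more, 19 were lower in F3-KO than in WT hearts after TAC, with a median of -0.36 (51.5% of all genes at that level), and 14 after sham, with a median of -0.20 (50.9%). The median after sham was -0.32 without WT sham replicate 2, -0.11 without WT sham replicate 1 and -0.036 without WT sham replicate 3. The 3 exceptions after TAC were *Kcnd2*, *Kcne1* and *Kcna7*. These comparisons share hearts with those of TAC and sham, so their values are not independent of them.

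**Figure D5:**
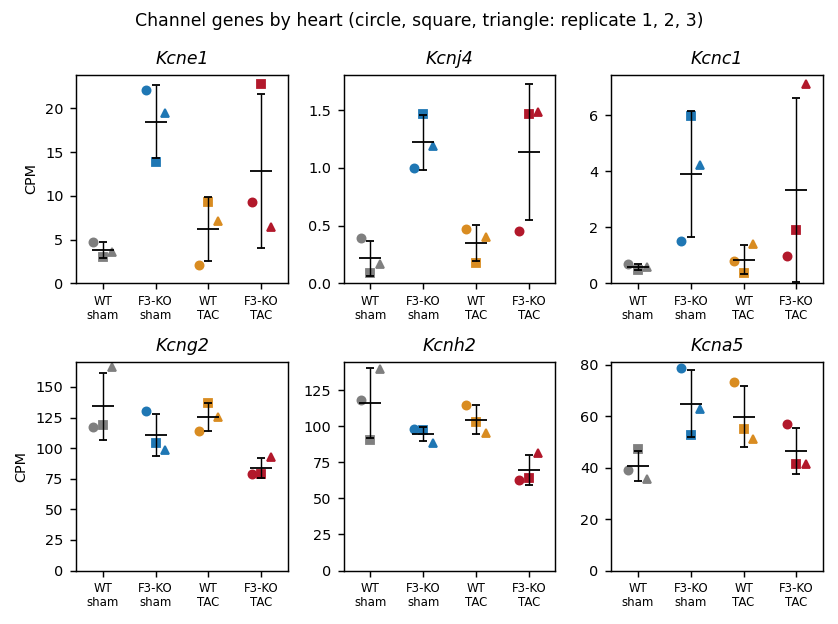
Level of 6 channel genes in each heart; the y axis is CPM from 0, symbols are replicates 1 to 3 of each group, and black bars give the mean ± SD of 3 hearts. *Kcne1* lies at 13.9 to 22.1 CPM in the F3-KO sham hearts against 3.02 to 4.76 CPM in the WT sham hearts, and *Kcng2* and *Kcnh2* are lowest in the F3-KO TAC hearts.

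Whether the TAC effect differed between the genotypes was tested as an interaction, and 0 members passed, as did 0% of all genes. DESeq2 also called 0 members and 0.0426% of all genes. At an unadjusted p under 0.05, 0 members were higher and 3 lower, against 2.31% and 2.18% of all genes. The lowest p among the members was that of *Kcna5*, the pore of the slower outward current named above. It was at 39.1, 47.1 and 35.7 CPM in WT sham and at 73.4, 54.9 and 51.3 CPM in WT TAC hearts, with every TAC heart higher. In F3-KO hearts it was at 78.9, 52.9 and 62.9 CPM after sham and at 56.8, 41.3 and 41.6 CPM after TAC, where replicate 1 of the TAC group lay inside the sham range. The log2 fold change of TAC against sham was 0.56 (SE 0.20, adjusted p = 0.782) in WT and -0.48 (SE 0.19, adjusted p = 0.243) in F3-KO hearts, and the interaction was -1.04 (SE 0.28, adjusted p = 0.954). *Kcnip2* gave an interaction of -1.02 (SE 0.36), with the same adjusted p of 0.954. For *Kcnj2* the interaction was 0.62, with a 95% interval of -0.0046 to 1.24.

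Genes that work with these channels were counted in 2 further lists. Of 16 tested partners and regulators (ATP-channel receptors, scaffolds, transcription factors) and 20 channels and transporters of the action potential, 0 passed edgeR's test in any comparison. DESeq2 called 1 to 3 genes of a list in 5 of the 7 comparisons, where it called 0.717% to 4.66% of all genes. Among them were *Popdc2*, *Irx3* and *Irx5* for F3-KO against WT after TAC, where the share was 0.717%. For TAC against sham in F3-KO hearts the partners had 1 gene higher and 4 lower at an unadjusted p under 0.05, and the action potential list 1 higher and 5 lower, against 10.6% and 6.47% of all genes. For F3-KO against WT after TAC the counts were 1 higher and 4 lower among the partners, and 2 higher and 4 lower in the action potential list, against 5.84% and 4.16% of all genes. *Irx5*, a transcription factor known to shape the ventricular gradient of *Kcnd2*, had a log2 fold change of -1.50 (SE 0.41, adjusted p = 0.374) in the latter comparison, at 15.7, 19.7 and 17.5 CPM in WT and 3.42, 9.95 and 5.11 CPM in F3-KO hearts, without overlap. *Abcc9*, the receptor subunit that pairs with *Kcnj11* and *Kcnj8*, gave -0.61 (SE 0.21, adjusted p = 0.192) for TAC against sham in F3-KO hearts.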

How the data were processed

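RNA of 12 mouse hearts was compared in 4 groups of 3, taken from the labels. The authors deposited estimated counts per gene that were not normalized; per the labels and methods, reads were cleaned with SOAPnuke and mapped with HISAT2 2.0.4 and STAR 2.3.0. The processing notes name mm8 and mm9 without a role, the counting tool is not given in the sources used here, and no gene position of the files' build is printed. Of the members' values 35.9% were not whole, and all were rounded. For 11 hearts the separate table equalled the joint table; that of WT sham replicate 2 breaks off and was not used.

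In R 4.3.3, filterByExpr (minimum count 10) kept 14094 of 19308 genes, all 52 members among them, and removed 0.0773% of the counts. edgeR 4.0.16 fitted 1 quasi-likelihood model of the 4 groups after TMM scaling (8 residual degrees of freedom), with Benjamini-Hochberg adjustment over all genes and calls at 0.05. Whole-number counts had been assumed when the tests were chosen. The scripts were tested on simulated data. The methods describe 3 biological replicates per group. Members and lists were chosen with earlier results of these data known. Genes named were members called in any comparison, a list of 22 cardiac channel genes, and the 3 members with the smallest p where none was called; others were named after their values were seen. Alternatives were DESeq2 1.42.0, its size factors in edgeR, 2 other filters, limma-trend 3.58.1, the replicate number as a block, only the 6 libraries compared, and leaving out each heart. Values of single hearts against a group mean used log2(CPM + 0.5). Values of 2 members are not reported here by name, though counts over the members include them. CPM per kb used GENCODE M21 exon lengths. A floor of 3 counts is 0.191 to 0.300 CPM.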

Additional observations from a re-analysis of the deposited data

Results flagged for a closer look

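The fitted log2 fold change of *Kcna5* for TAC against sham was positive in WT and negative in F3-KO hearts, without passing the interaction test. The gene had the smallest interaction p of the members and was flagged for the pattern below, looked for among the named members only. The pattern and the range without 1 heart come from the values that selected it and are no separate support. How many of all genes show such a pattern was not counted. Each of the 3 WT TAC hearts stood above the mean of the WT sham hearts, and each of the 3 F3-KO TAC hearts stood below the mean of the F3-KO sham hearts. The difference of the log2 fold changes, F3-KO minus WT, was -1.04 (SE 0.28). Tested as an interaction in edgeR's quasi-likelihood model, it had an unadjusted p of 0.00275 and an adjusted p of 0.954 over all genes. Leaving out 1 heart at a time gave -1.21 to -0.87. Groups of 3 hearts are too small for a test of single outlying hearts.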

How the results depend on the processing

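DESeq2's Wald test called 3 members for TAC against sham over both genotypes, 1 in WT hearts, 1 in F3-KO hearts, 2 for F3-KO against WT after sham and 7 averaged over both surgeries, where edgeR called 0, 0, 0, 0 and 1. The 7 include *Kcnj4* and *Kcnc1*, whose membership rests on the F3-KO hearts. For TAC against sham over both genotypes, no filter on low counts gave 1 member and at least 10 counts in every library gave 1. The fit of only the 6 libraries compared called 1 member, *Kcne1*, for F3-KO against WT after sham. Without 1 heart the counts were 0 to 5 for TAC over both genotypes, 0 to 4 in F3-KO hearts and 0 to 3 for the averaged genotype comparison, with 3 when F3-KO TAC replicate 3 was left out and 1 when WT TAC replicate 1 was. Counts in WT hearts, after sham, after TAC and for the interaction were 0 in every such fit. Without F3-KO TAC replicate 3 the share of all genes called for TAC over both genotypes was 5.92%, against 0.078% in the main fit. In F3-KO hearts it was 5.43%, against 0%. Calls over all genes thus rose as well. Shares of all genes in the other fits of this paragraph are not given here, so those counts cannot be read as particular to the members. With the replicate number as a block, the counts were 0 in 6 comparisons and 1 in the averaged genotype comparison, the same as without it. Deviations from the group means correlated at -0.141 to 0.362 between samples with the same number (median 0.0372, 4 of 18 pairs over 0.1). Between samples with other numbers they correlated at -0.359 to 0.196 (median -0.0311, 2 of 36 pairs over 0.1). The highest value, 0.362, was that of WT TAC replicate 3 with F3-KO TAC replicate 3, and 6 of 12 hearts were closest to their own number. The numbers were not taken as pairs in the main fit, and whether they mark a shared step was not tested.

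For the named members, 224 of 236 values under other settings kept their direction and side of the threshold, 10 passed it newly and 2 reversed, both for *Kcne1* in TAC against sham over both genotypes (-0.11 with limma-trend and -0.031 with the block, against 0.09). Of 456 values without 1 heart, 423 kept both, 10 lost the threshold, 9 gained it and 14 reversed. The reversals were all in TAC against sham over both genotypes, for *Kcna4* (-0.10 to 0.13), *Kcna5* (-0.052 to 0.12), *Kcnq1* (-0.042 to 0.23), *Kcne1* (-0.28 to 0.30) and *Kcnmb1* (-0.038 to 0.37). The cause was not tested. Members under 1 CPM rest on few counts.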
